A study of Mesocricetus auratus with 8 samples.

Results

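Cytosolic ribosomal proteins were examined in the hearts of 8 female golden hamsters (Mesocricetus auratus). They were taken by name: every row of the count table whose symbol began with Rpl or Rps and a digit, together with Rplp0, Rplp1, Rplp2 and Rpsa, without the S6 kinase genes whose symbols begin with Rps6k. This gave 73 of 20360 rows, 44 for the large subunit, 28 for the small subunit and Rps19bp1, which encodes a nucleolar protein that binds Rps19 and is no ribosomal protein. Each library held the polyA RNA of 1 heart, taken when the animals were 25 weeks old. Both wild type hamsters and hamsters with loss of heterozygosity of Myh6, which encodes alpha cardiac myosin, are in the study, all killed ahead of the onset of dilated cardiomyopathy. Since the labels give an animal code (M5F5, M5F7 and so on) but no genotype, genotypes could not be compared, and each value below belongs to 1 animal.

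The cytosolic ribosome reads messenger RNA in its small subunit and joins amino acids in its large subunit. Each subunit holds 1 copy of most of its proteins, and their genes are known in mammals for being expressed together. Their messenger RNAs begin with a terminal oligopyrimidine (TOP) tract, shared with elongation factors, through which the kinase complex mTORC1 and the protein Larp1 control their translation and stability. In heart muscle, ribosome content sets much of the capacity for protein synthesis and increases during growth of the myocytes. Striated muscle also expresses Rpl3l, a paralog of Rpl3, and inherited variants of its human counterpart have been linked to dilated cardiomyopathy in children.

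Library totals lay between 13608500 counts (M5F56) and 15255764 counts (M5F19), with TMM scaling factors from 0.960 to 1.05, and values are CPM, the count relative to the scaled library total. CPM is not corrected for gene length, so levels are compared between libraries and not between genes. A mean count of 50 or more was required for testing, which 71 of the 73 rows reached, among 10909 genes in all. Rpl26l1 lay just inside this limit with a mean count of 73.6, and Rps20 (38.5) and Rpl28 (7.63) lay outside it. Heart muscle identity was plain in the libraries, with Tnnt2, cardiac troponin T, at 8683 to 11330 CPM, while no row stood under the symbols Myh6 or Myh7. M5F5 differed from the other libraries in holding liver transcripts. The summed level of 10 liver markers, chosen after their values were seen, was 140 CPM in M5F5 and 1.02 to 3.67 CPM in the other 7, and albumin (Alb) alone reached 90.7 CPM in M5F5. Counts, medians and spans over the members are therefore also given without M5F5, while a level in M5F5 itself has no such counterpart.

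Ribosomal protein transcripts moved together across the 8 hearts, and 1 heart stood above the rest. Of the 71 tested members, 65 (91.5%) peaked in M5F5, where 16.5% of all genes tested did. M5F19 held the lowest value of 41 members (57.7%), against 15% of all genes. All 73 rows together made up 1.73% of the counts in M5F5, 1.55% in M5F7, 1.54% in M5F55, 1.50% in M5F56, 1.40% in M5F12, 1.40% in M5F22, 1.36% in M5F16 and 1.22% in M5F19. The exact 95% binomial intervals of M5F12 and M5F22 (1.40 to 1.41 for both) overlapped, while those of the other neighbours in the order did not. The shares are of unscaled library totals, and the order in the middle depends on scaling. By the members' median log2 difference after TMM scaling, M5F22 (-0.01) lay above M5F56 (-0.02) and M5F12 (-0.10). The share in M5F5 was 1.42 times that in M5F19, and without M5F5 the highest share, in M5F7, was 1.27 times that in M5F19. These intervals cover counting error only, since the reads carry no molecular identifiers and may repeat a molecule.

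**Figure D1:**
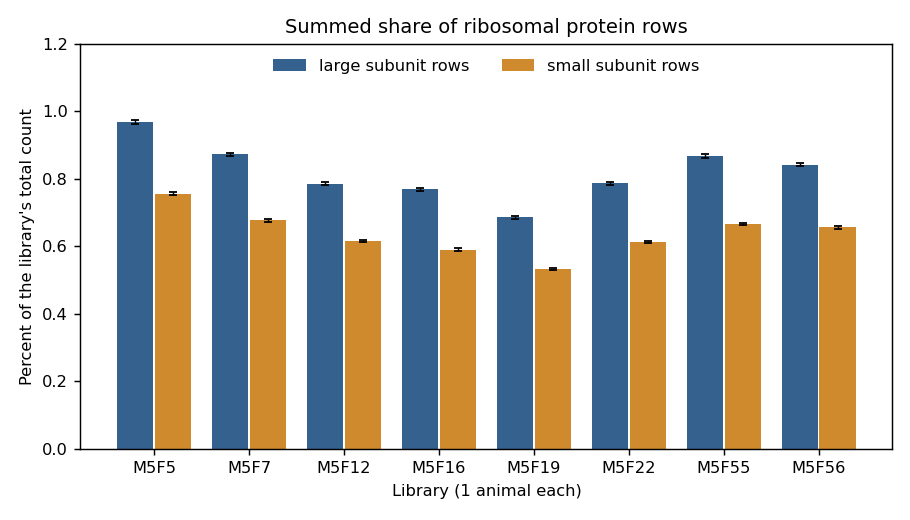
Summed counts of the large subunit rows (44) and the small subunit rows (28) as a percent of each library's total count, 1 bar per subunit and library, with exact 95% binomial intervals for counting error. Both subunits have their highest bar in M5F5 (0.969% and 0.756%) and their lowest in M5F19 (0.686% and 0.533%).

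The subunits kept a fixed proportion. Large subunit rows took 56.1 to 56.6% of the ribosomal protein counts in every library. On the log2 scale the median large subunit member was 0.29 above its own 8-library mean in M5F5 and the median small subunit member 0.30 above. In M5F19 the same medians were -0.18 and -0.20. Without M5F5, and against the mean of the other 7, both medians were 0.16 in M5F7, and in M5F19 they were -0.15 (large subunit) and -0.16 (small subunit). Over all 71 members the median difference was 0.30 in M5F5, 0.12 in M5F7, 0.08 in M5F55, -0.01 in M5F22, -0.02 in M5F56, -0.10 in M5F12, -0.12 in M5F16 and -0.19 in M5F19. The same median over all genes tested lay between -0.01 and 0.01 in the 8 libraries.

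**Figure D2:**
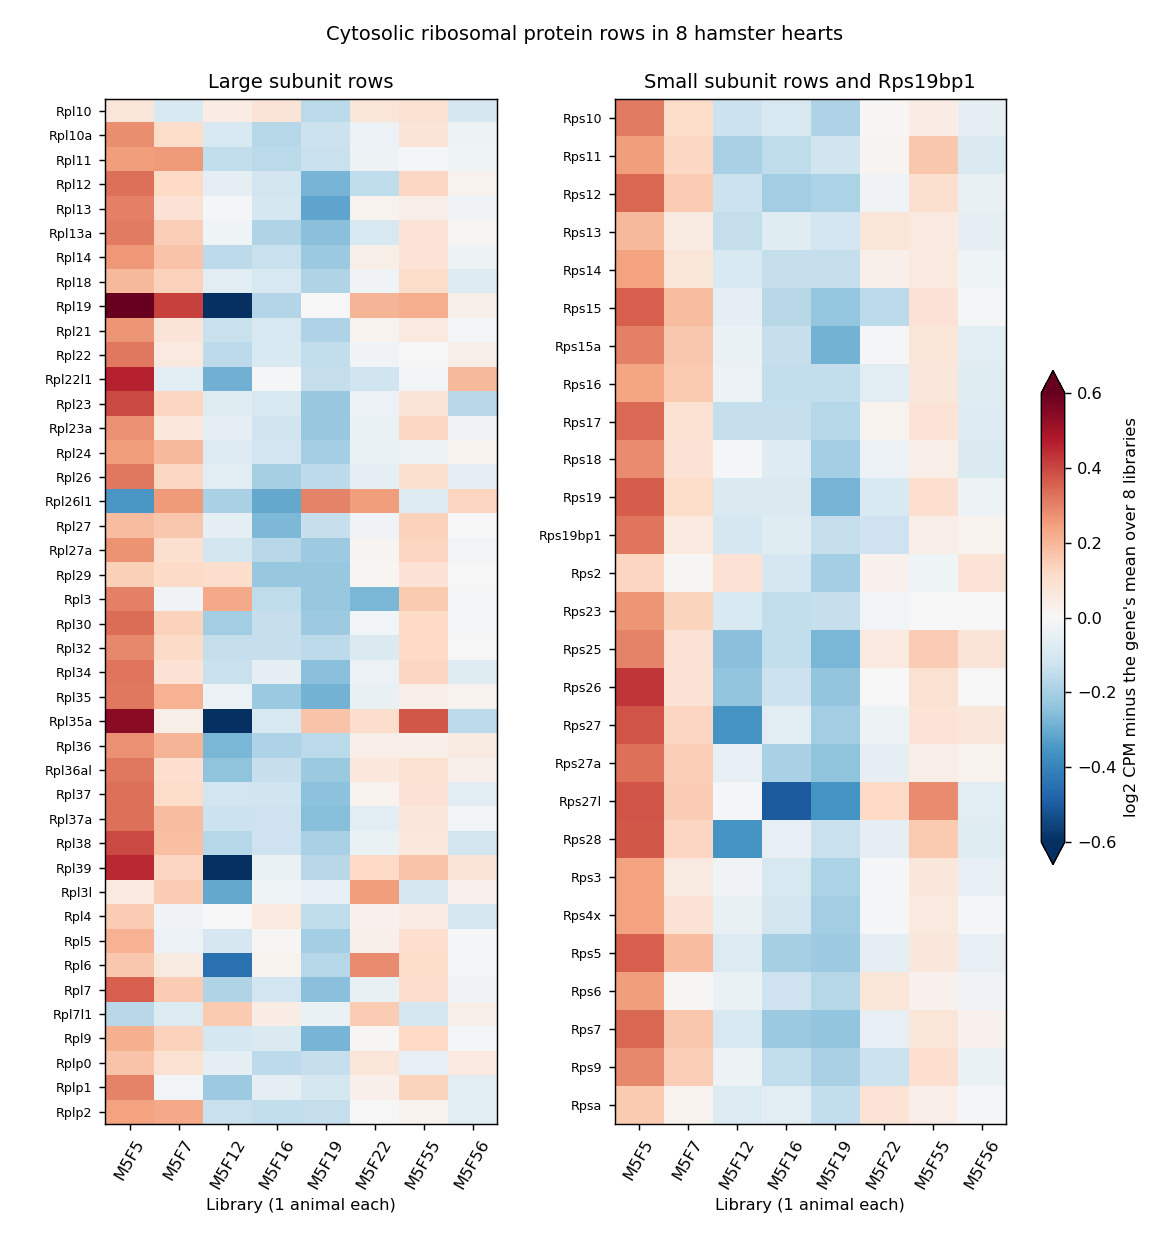
Each row is a tested gene and each column 1 library; colour gives the log2 CPM minus that gene's mean over the 8 libraries, red for higher and blue for lower, with the scale ending at 0.6 either way. The M5F5 column is red in most rows of both subunits and the M5F19 column is blue, while Rpl26l1, Rpl7l1 and Rpl3l depart from this and Rpl19, Rpl35a and Rpl39 are dark blue in M5F12.

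With all libraries in, the median size of this variation was near that of all genes. The median member spanned 1.43-fold between its highest and its lowest library, and the median of all genes tested spanned 1.45-fold. By the chi-square test, with p-values adjusted by Benjamini-Hochberg over all genes, the libraries differed by more than counting error in all 71 members and in 86.4% of all genes. Only 3 members, Rpl19, Rpl35a and Rpl39, also spanned 2-fold or more, against 13.9% of all genes. With both extreme libraries of a gene dropped, 0 of the 71 members spanned 2-fold, against 2.85% of all genes, and the median span was 1.23-fold for members and 1.25-fold for all genes. Without M5F5 the median member spanned 1.29-fold, against 1.42-fold for the median of the other genes tested. Of the 71 members, 68 then varied beyond counting error and 2 spanned 2-fold or more. The same shares over all genes are not given here without M5F5, so these counts are not set against them. Spans include counting error, and members and other genes were not matched for counts. Much of the members' variation was shared. After the median of the other members was subtracted from each member in each library, the median member spanned 1.15-fold, and 51 of the 71 spanned less than 1.2-fold, where 1 had done so before. The members' median taken from the 10838 other genes in the same way widened their median span to 1.60-fold, and 2.95% of them spanned less than 1.2-fold, against 10.04% before. Without M5F5, 53 of the 71 members spanned less than 1.2-fold after this step and 11 before it, and of the other genes 5.91% did after it and 12.9% before it.

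M5F5 stood above M5F19 in nearly every member, while the order of the libraries between them varied. M5F5 was above M5F19 in 69 of the 71 members, with a median fold of 1.40, where it was above in 51.8% of all genes with a median fold of 1.01. This pair was picked from the members' own highest and lowest values, and the 65 members highest in M5F5 lie above M5F19 by definition. The 69 of 71 was thus largely fixed in advance and adds no support, while the value over all genes was not picked in this way. For the 65 members highest in M5F5, the next library was M5F7 for 43 and M5F55 for 15. The gap to that next library had a median of 1.12-fold (1.01 to 1.26), and the 95% Poisson intervals of the pair did not overlap for 46 of the 65, where they did not for 9.97% of all genes highest in M5F5. At the lower end the gaps were narrower: for the 41 members lowest in M5F19 the next library was a median of 1.05-fold higher, and the intervals were apart for 13, against 7.83% of all genes lowest in M5F19. The members carried more counts than those genes, with a median mean count of 2804 against 430 for the genes highest in M5F5 and of 3022 against 275 for those lowest in M5F19, so the counts of separate intervals cannot be read as a trait of the members. Without M5F5, 44 of the 71 members peaked in M5F7 (24.4% of all genes) and 41 were lowest in M5F19 (15.6% of all genes).

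**Figure D3:**
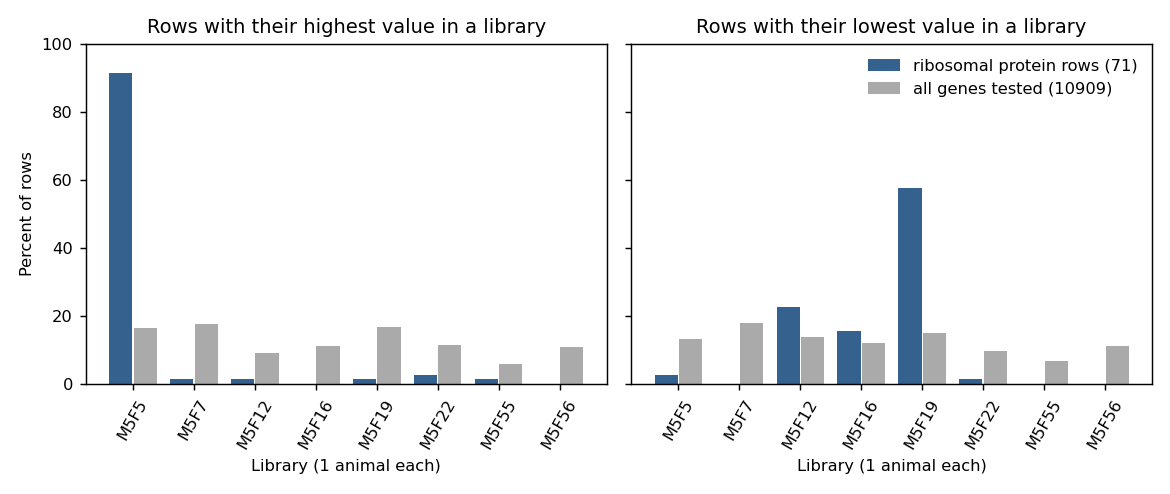
Percent of rows whose highest (left) or lowest (right) value lies in each library, for the 71 ribosomal protein rows and for all 10909 genes tested. In M5F5 lie the highest values of 91.5% of the members and 16.5% of all genes, and in M5F19 the lowest of 57.7% and 15%.

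Among the members with the most counts, levels in M5F5 were again the highest, and the libraries next to it differed. Rpl5, which with Rpl11 carries the 5S ribosomal RNA into the large subunit, had 462 CPM in M5F19, a median of 532 and 616 in M5F5, followed by 571 in M5F55, with M5F7 sixth at 519. Rpl13a, also of the large subunit, ran from 385 CPM in M5F19 to 570 in M5F5 (median 457), 1.48-fold and 1.32-fold without M5F5. Rplp1, of the stalk that recruits elongation factors, ran from 373 CPM in M5F12 to 532 in M5F5 (median 423). In the small subunit, Rps3, at the entry of the messenger RNA channel, had 418 CPM in M5F19, a median of 473 and 564 in M5F5. Rps4x, which is X-linked in mammals, ran from 400 CPM in M5F19 to 547 in M5F5. In each of these 5 the M5F5 value lay above that of the other 7. Rpsa, also described as a laminin receptor, and Rpl4, which lines the exit tunnel, were among the 4 members with the narrowest span, 1.23-fold each. Rpsa ran from 378 CPM in M5F19 to 466 in M5F5, and Rpl4 from 370 to 456 CPM. Rpl35 and Rps25 were among the 8 members with the widest span after the extremes were dropped, 1.35-fold and 1.32-fold. Rpl35 ran from 130 CPM in M5F19 to 197 in M5F5 (median 157) and Rps25 from 145 to 216 CPM in those libraries (median 184).

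Of the 71 members, 6 were not highest in M5F5: Rpl10, Rpl11, Rpl3l, Rpl6, Rpl7l1 and Rpl26l1. Rpl11 was level between M5F7 (125 CPM) and M5F5 (124 CPM). Rpl10, which joins the large subunit late, near the site of peptide bond formation, had the narrowest span of all 71 members, 1.19-fold, from 132 CPM in M5F19 to 157 in M5F55. Rpl6 was highest in M5F22, and Rpl3l, Rpl7l1 and Rpl26l1 are paralogs of other members.

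Rpl3l, the muscle paralog of Rpl3, was highest in M5F22 and lowest in M5F12. It had 215 CPM in M5F22, 201 in M5F7, 188 in M5F5, 184 in M5F56, 177 in M5F16, 175 in M5F19, 169 in M5F55 and 146 in M5F12. Its partner Rpl3 had 175 CPM in M5F22, 209 in M5F7, 261 in M5F5, 210 in M5F56, 190 in M5F16, 181 in M5F19, 236 in M5F55 and 248 in M5F12. The library with the most Rpl3l, M5F22, thus had the least Rpl3, and M5F12, with the least Rpl3l, had the second-highest Rpl3. As a share of the counts of both genes, which no scaling of libraries can change, Rpl3l took 55.1% in M5F22 (exact 95% binomial interval 53.8 to 56.4), 49.1% in M5F19, 49.1% in M5F7, 48.2% in M5F16, 46.7% in M5F56, 41.9% in M5F5, 41.6% in M5F55 and 37.1% in M5F12 (35.8 to 38.3). The intervals of M5F22 and M5F12 lay apart from those of the other 6 libraries and from each other. Both genes varied beyond counting error (adjusted p = 8.09e-48 for Rpl3l and 9.77e-98 for Rpl3, chi-square test). The genes are similar in sequence, and how reads that match both were counted is not given in the sources used here, so the shares depend on that counting.

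**Figure D4:**
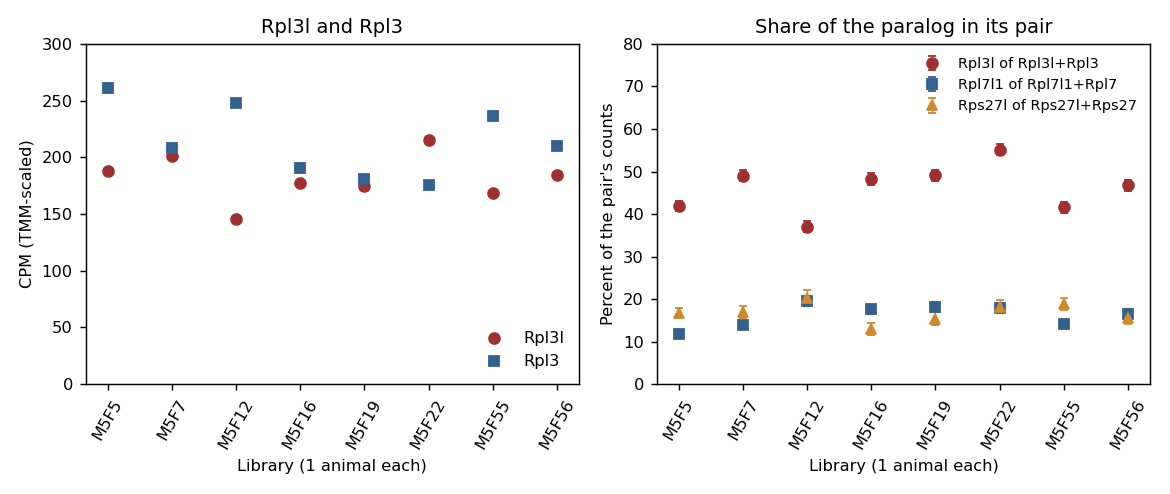
Left, CPM of Rpl3l and Rpl3 in each library; right, the paralog's percent of the counts of its pair, with exact 95% binomial intervals for counting error, for Rpl3l, Rpl7l1 and Rps27l. Rpl3l exceeds Rpl3 in M5F22 alone, and its share runs from 37.1% in M5F12 to 55.1% in M5F22.

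Other paralogs also departed from their partners. Rpl7l1, related to Rpl7, was lowest in M5F5 at 48.9 CPM and highest in M5F12 at 61.1 CPM (median 54.7), while Rpl7 was highest in M5F5 at 368 CPM and lowest in M5F19 at 241. The share of Rpl7l1 in the pair was accordingly lowest in M5F5, 11.7%, and highest in M5F12, 19.4%. Rpl26l1, related to Rpl26, was lowest in M5F5 at 3.93 CPM (95% Poisson interval 2.96 to 5.11) and highest in M5F19 at 6.15 CPM (4.94 to 7.55), so its intervals overlapped and its adjusted p was the highest of the 71 members, 0.0230 (chi-square test). Its partner Rpl26 ran from 313 CPM in M5F16 to 448 in M5F5.

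Rps27l, a paralog of Rps27 that p53 induces in human cells, had the widest span after the extremes were dropped, 1.56-fold. It was at 41.1 CPM in M5F5, 38.5 in M5F55, 35.2 in M5F7, 34.3 in M5F22, 31.4 in M5F12, 30.3 in M5F56, 24.7 in M5F19 and 22.4 in M5F16. Its share of the pair ran from 12.9% in M5F16 to 20.3% in M5F12, and Rps27 itself from 123 CPM in M5F12 to 205 in M5F5. Rpl22l1, related to Rpl22, ran from 7.49 CPM in M5F12 to 12.6 in M5F5, with a share of 4.32 to 5.22% and overlapping intervals in all libraries. Rpl22 ran from 166 CPM in M5F12 to 230 in M5F5. Rpl36al, a paralog of Rpl36a, ran from 167 CPM in M5F12 to 245 in M5F5, and no row stood under the symbol Rpl36a.

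The widest spans among the members arose in M5F12. It held the lowest value of 16 of the 71 (13.9% of all genes). With libraries scaled by total counts it held that of 11 of the 71, near this 13.9%, which belongs to the TMM scaling. The share of all genes under total counts is not given here. In 8 of the 16 the interval lay apart from that of the next library (10.9% of all genes lowest in M5F12). These members carried more counts than those genes, with a median mean count of 1918 against 430. The count of separate intervals thus cannot be read as a trait of the members. Rpl19, a large subunit protein that forms a bridge to the small subunit, was at 4.16 CPM in M5F12 (60 counts, 95% Poisson interval 3.17 to 5.35) against 9.14 to 15.8 CPM in the other 7, a span of 3.77-fold (adjusted p = 6.89e-20, chi-square test). Rpl35a was at 4.99 CPM in M5F12 (72 counts) against 8.76 to 14.2 CPM, and Rpl39, a small protein of the exit tunnel, at 18.5 CPM against 27.6 to 42.4 CPM. In these 3 genes M5F12 lay below the rest, and without M5F12 none of the 71 members spanned 2-fold. Their spans were then 1.72-fold, 1.62-fold and 1.54-fold. Without M5F5 the span of Rpl39 was 1.88-fold. Rpl6 was at 42.8 CPM in M5F12 and highest in M5F22 at 71.0 CPM (median 59.9). M5F12 also had the lowest sum of ventricular myocyte markers, 72032 CPM, and the highest sum of macrophage markers, 134 CPM, and their part in these values was not tested.

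The 2 rows under the count limit also had their lowest counts in M5F12. Rps20 had 18 counts there against 24 to 54 in the other 7, and Rpl28 had 1 count against 5 to 15. Ribosomal protein genes have many processed copies in mammalian genomes, and reads shared with them may have been assigned elsewhere. Rows with few counts, such as those of Rpl19, Rpl28, Rpl35a and Rps20, are therefore uncertain. Rplp0, of the stalk, had few counts as well, from 30.7 CPM in M5F16 to 38.6 in M5F5. For Rpl28 the RefSeq gene table (assembly BCM_Maur_2.0) paired a further row, LOC101823529, with the same symbol, and this row had 117 to 187 counts, the most of them in M5F5. It also paired LOC101829440 with Rpl17, LOC101830140 with Rps21 and LOC101839674 with Rps3a, which are not among the 73. These rows were highest in M5F5 too, at 290, 54.6 and 177 CPM, and lowest in M5F19, at 209, 38.1 and 121 CPM. With these 4 rows counted in, M5F5 held the highest value of 69 of 75.

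Rps19bp1, included by its name alone, ran from 17.0 CPM in M5F19 to 23.5 in M5F5, with a median of 18.5 and a span of 1.38-fold.

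Genes that work with the ribosome were examined as 4 lists. Of 22 measured elongation factors and other TOP-type genes, 13 were highest in M5F5 (16.5% of all genes) and 5 lowest in M5F19 (15% of all genes), and their median log2 difference from the 8-library mean was 0.17 in M5F5 and -0.09 in M5F19. Without M5F5, 11 of the 22 were highest in M5F7 (24.4% of all genes) and 5 were lowest in M5F19 (15.6% of all genes). The medians were then 0.09 in M5F7 and -0.07 in M5F19. Eef1a1, which brings aminoacyl-tRNA to the ribosome, ran from 3408 CPM in M5F19 to 4510 in M5F5 (median 3795). Tpt1, a TOP-type gene of translational control, ran from 1350 CPM in M5F16 to 1937 in M5F5. Fau, which encodes a ribosomal protein fused to a ubiquitin-like sequence, was highest in M5F5 at 213 CPM and lowest in M5F12 at 160 CPM. Eef1a2, the muscle and nerve form of the factor, was highest in M5F19 at 2215 CPM and lowest in M5F7 at 1596 CPM. Eif3f, a subunit of an initiation factor that is assigned to the TOP-type genes, ran from 80.9 CPM in M5F12 to 133 in M5F5, and Eif2s3 from 44.5 CPM in M5F7 to 94.8 in M5F19. Eef1a2 and Eif2s3 thus had their highest value in the library where most ribosomal proteins had their lowest. The list as a whole had 3 of its 22 genes highest there, near the 16.9% of all genes.

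The other 3 lists lay nearer to their means in M5F5. Their median log2 differences there were 0.01 for 28 initiation factors, 0.06 for 43 ribosome biogenesis genes and -0.06 for 29 genes of mTORC1, S6 kinase and Myc regulation. Of the initiation factors 11 were highest in M5F5 (16.5% of all genes) and 10 in M5F19 (16.9% of all genes), and their median span was 1.25-fold. Eif4ebp1, whose protein represses the cap-binding factor and is phosphorylated by mTORC1, ran from 17.2 CPM in M5F12 to 33.0 in M5F5. Eif4g3, a scaffold of the cap complex, and its relative Eif4g2 were lowest in M5F5, at 78.0 and 782 CPM, and highest in M5F19, at 144 and 1095 CPM. Eif4g1, the main scaffold, had 344 CPM in M5F7 and 506 CPM in M5F19, and Eif5 from 242 CPM in M5F55 to 301 in M5F19.

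Of the 43 biogenesis genes 31 varied beyond counting error (86.4% of all genes), 2 of them 2-fold or more (13.9% of all genes), and 13 were highest in M5F5 (16.5% of all genes). The helicase gene Ddx21 was lowest in M5F5 at 31.0 CPM and highest in M5F19 at 53.0, and Utp20, of small subunit processing, was lowest in M5F5 at 6.28 CPM and highest in M5F16 at 17.6. Both thus had their lowest value where most ribosomal proteins had their highest. Taf1d, which like Utp20 spanned 2-fold or more, ran the other way, from 28.1 CPM in M5F19 to 60.6 in M5F5. The list as a whole had 5 of its 43 genes lowest in M5F5, near the 13.3% of all genes. The nucleolar genes Ncl and Npm1 were lowest in M5F7, at 162 and 142 CPM, and highest in M5F22 (213 CPM) and M5F5 (186 CPM). Rrn3, a factor of RNA polymerase I, ran from 74.6 to 93.0 CPM, and Gar1 from 5.26 to 8.95 CPM.

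Larp1, which binds TOP messenger RNAs, had 59.0 CPM in M5F7, a median of 87.1 and 116 CPM in M5F19, and its relative Larp4 from 23.8 CPM in M5F5 to 56.6 in M5F19. Larp1 and Larp4 were highest in the library where most ribosomal proteins were lowest. The list as a whole had 7 of its 29 genes highest in M5F19 (16.9% of all genes). Ddit4, an inhibitor of mTORC1, ran from 23.9 CPM in M5F16 to 55.98 in M5F5, and Sesn1, another, from 272 CPM in M5F7 to 527 in M5F22. Rraga, of the amino acid sensing complex, ran from 154 to 190 CPM and Mxd4, an antagonist of Myc, from 112 to 170 CPM. Of the 29 genes 28 varied beyond counting error (86.4% of all genes) and 4 spanned 2-fold or more, near the 13.9% of all genes.

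**Figure D5:**
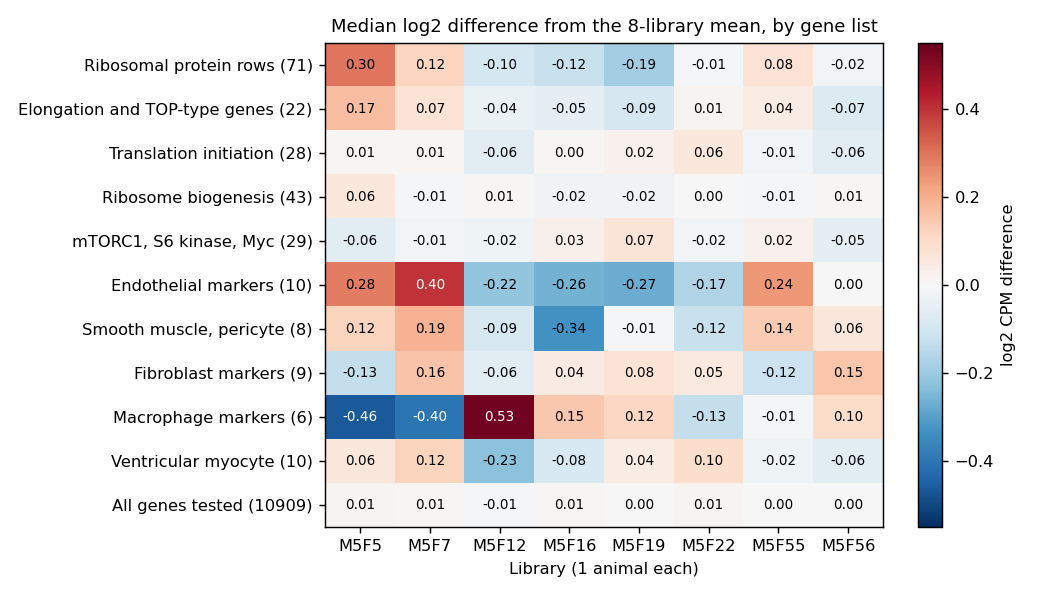
Median over the tested genes of each list (number in brackets) of the log2 CPM difference from the gene's own 8-library mean, by library; the value is printed in each cell. The ribosomal protein row has 0.30 in M5F5 and -0.19 in M5F19, the endothelial row 0.28 and -0.27 in the same libraries, and the row of all genes lies between -0.01 and 0.01.

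Markers of other cells moved with the ribosomal proteins in part, and their part in the result was not tested. In whole-heart RNA, fewer cells of a type and less RNA per cell cannot be told apart. All 10 endothelial markers were highest in M5F7 (6, against 17.7% of all genes) or M5F5 (4, against 16.5%), and their summed level was 1966 CPM in M5F7, 1790 in M5F5, 1670 in M5F55, 1400 in M5F56, 1263 in M5F22, 1253 in M5F12, 1222 in M5F16 and 1196 in M5F19. The 4 libraries with the highest endothelial sum were also the 4 with the highest summed share of ribosomal proteins, and M5F19 was lowest in both. The endothelial sums are TMM-scaled, while the shares are of unscaled totals. By the TMM-scaled median log2 difference of the ribosomal proteins, M5F22 (-0.01) stood above M5F56 (-0.02). The match of all 4 libraries thus depends on the measure. Kdr, the main receptor of vascular endothelial growth factor, ran from 138 CPM in M5F19 to 246 in M5F5, and Erg, an endothelial transcription factor, from 20.1 to 40.4 CPM in the same libraries. Macrophage markers ran the other way in M5F5, where 4 of the 6 tested were lowest (13.3% of all genes), with a summed level of 69.9 CPM against 83.0 to 134 CPM in the other 7.

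The summed level of 10 ventricular myocyte markers ran from 72032 CPM in M5F12 to 89632 in M5F7, with 88532 in M5F5 and 84735 in M5F19. Fibroblast markers (9) ran from 1810 to 2208 CPM and smooth muscle and pericyte markers (8) from 1195 CPM in M5F16 to 1693 in M5F7. Atrial markers summed to 977 CPM in M5F5 and to 58.0 to 386 CPM in the other 7, nearly all of it Nppa. Bmp10 had no count in any library and Sln was under the count limit. Of the 2 atrial markers tested, 1 was highest in M5F5 (16.5% of all genes) and 1 in M5F19 (16.9% of all genes), so the sum follows a single gene. Lymphocyte markers stayed at 2.71 to 6.93 CPM, skeletal muscle markers at or below 0.928 CPM and erythroid markers at 11.4 to 34.4 CPM.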

How the data were processed

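The authors deposited counts, whole numbers per gene and library, which were taken as not normalized. The tools named, per the submitters' processing notes, are RSEM, Bowtie2 2.2.5 and HISAT2 2.0.4, without their roles. Build, annotation, strandedness and rounding: not given in the sources used here. All 8 columns matched a library label.

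Libraries were scaled by TMM (edgeR 4.0.16, R 4.3.3). The prior count for log2 values was 0.5. Each gene with a mean of 50 counts or more was tested for equal relative abundance by chi-square, adjusted by Benjamini-Hochberg over all 10909. A span is the log2 CPM of the highest minus that of the lowest library. A count of 0 was taken to allow up to 3 counts, 0.199 to 0.214 CPM. Intervals are exact Poisson or binomial at 95% and, like the chi-square test, measure counting error only. The code was tested on simulated data. No group was labelled, so no test between groups was made.

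The members and gene lists were chosen with earlier results of these data known. Named members were the 8 with the highest median CPM, the 8 widest after dropping the extremes, the 4 narrowest, the 8 that departed most from the members' median, all paralogs and partners, and those at the count limit. Of each other list the 3 highest and the 3 widest could be named. Rpl11, Rplp0, Fau, Taf1d, the identifier rows and Alb were named after their values were seen. No sequence was used here, and a few genes that the rule would name are not reported here.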

Additional observations from a re-analysis of the deposited data

How the results depend on the processing

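Scaling by DESeq2 1.42.0 size factors, by total counts or by TMM without the ribosomal protein rows left M5F5 with the highest value of 62 to 65 of the 71 members and M5F19 with the lowest of 40 to 55. These scalings and a prior count of 5 kept 3 members at 2-fold or more and 71 past counting error. With no count filter 5 members spanned 2-fold and 2 did so after the extremes were dropped, both of them from the 2 rows under the limit, and with a mean count of at least 500, which removes Rpl19, Rpl35a and Rpl39, 0 of 63 did. Leaving out 1 library gave 0 to 3 members at 2-fold, the 0 without M5F12, and 68 to 71 past counting error, the 68 without M5F5. The median span was then 1.29-fold to 1.43-fold, lowest without M5F5. The ratio of the highest to the lowest summed share was 1.43 over totals that omit the 10 most abundant genes and 1.27 without M5F5, which was added after the data were seen. Spans of single named members stayed on the same side of 2-fold in 332 of 336 repeats; the exceptions were Rpl19, Rpl35a and Rpl39 without M5F12 and Rpl39 without M5F5. Depth limits Rpl26l1, Rps20 and Rpl28 most.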
